A study of Mus musculus with 4 samples.

Results

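The genes described here are 6 that were listed as markers of the cap mesenchyme and do not encode transcription factors: Crym, Dapl1, Tmem100, Lypd1, Spock2 and Ncam1. They were taken by gene name from the array annotation and are 6 of 31809 gene names with values on the array. They gave 8 probes of 39395, 3 for Ncam1 and 1 for each of the other genes. The markers were picked with results of this same comparison known, so their differences between the sorted populations are given as a description, without p-values.

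The arrays compared Six2GFP-positive cells, labelled as nephron progenitors, with Six2GFP-negative cells, the remainder of the organ, both sorted from embryonic mouse kidneys at day E15.5 (E15.5 denotes days after conception). Each population was measured on 2 one-colour arrays. All animals were hybrids of 129 and C57BL/6 carrying the Six2GFP reporter; the construct that drives the GFP, the number of kidneys per sample and any pooling are not given in the labels. Tamoxifen appears in the description of all 4 samples but in no protocol, and the cell type label reads nephron progenitor for both populations, so the groups were taken from the titles.

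The cap mesenchyme is the layer of nephron progenitors around each tip of the branching ureteric bud. Its cells either renew themselves, held undifferentiated by the transcription factor Six2, or condense into the vesicles from which nephrons form. Besides transcription factors they carry surface, matrix and cytosolic proteins by which the layer is recognised, and the 6 genes were listed as such markers. In these arrays not all of them were higher in Six2GFP-positive cells: Dapl1 was lower, and Lypd1 overlapped between the groups. In RNA from sorted populations, fewer cells of a type and less RNA per cell cannot be told apart.

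Signals are given as log2 of the processed fluorescence relative to the 75th percentile of the array, so 0 means as bright as that percentile. Brightness also depends on the probe, and levels are therefore compared between arrays for a probe and not between probes. Differences are Six2GFP-positive minus Six2GFP-negative, with limma's standard error (SE, n = 2 arrays per group). Over the 30012 probes in the fit the median difference was 0.17, which is the shift against which small differences have to be read.

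The sort separated the arrays in the direction of their labels. Six2 averaged 5.58 in positive cells and -0.25 in negative cells (difference 5.84 ± 0.10, limma adjusted p = 4.8e-04), and Cited1, a co-regulator of the least differentiated progenitors, averaged 5.17 in positive cells and 0.35 in negative cells (4.82 ± 0.17, adjusted p = 5.4e-04). Of 25 cap mesenchyme regulators and signals, these included, 22 were higher and none lower, with a median difference of 1.68. Traf1, a signalling adaptor, differed by 5.41 ± 0.12 (limma adjusted p = 4.8e-04). Fgf20, a growth factor of the progenitors, differed by 7.05 ± 0.28 (limma adjusted p = 6.2e-04, or 0.0024 with no filter on dim probes). However, it entered the fit through the positive arrays. It was well above background on 1 of 2 negative arrays, so the size of its difference is uncertain. Markers of other cell types were counted too: 18 of 19 early nephron genes, 11 of 12 ureteric bud, 11 of 13 stromal and 11 of 12 endothelial genes were lower in positive cells, along with 8 of 10 podocyte, 8 of 10 proximal tubule, 6 of 7 erythroid and 6 of 12 leukocyte genes. Of 11 neural genes tested, 4 were higher and 3 lower. In the early nephron list Fgf8 was higher in positive cells (1.34), as was Ren1 in the stromal list (1.37). Over all probes 22.7% were called higher and 18% lower. Proximal tubule and leukocyte genes were brighter on positive array 1 than on positive array 2, by medians of 0.64 and 0.55. All 4 arrays lay on 1 slide with 1 recorded scan time.

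Of the 8 probes, all were well above background on all 4 arrays and none was saturated. By an adjusted p of 0.05 in limma, 5 were called higher and 1 lower in Six2GFP-positive cells, where 22.7% of all probes tested were called higher and 18% lower. Of all calls 55.8% were in the higher direction, against 74.5% with arrays centred on their median, 44.6% with no filter on dim probes and 30.9% to 42.3% in the fits without 1 array. Since the genes were chosen on this comparison, the count is not evidence about them. Their differences spanned 8.14 log2 units, from -3.05 for Dapl1 to 5.08 for Crym. As a name for these genes, cap mesenchyme marker matched the direction of Crym, Spock2, Tmem100 and the brighter Ncam1 probes in these arrays. It did not match that of Dapl1, and could not be judged for Lypd1 or the dimmest Ncam1 probe. For the same reason as the count, these matches are no test of the name.

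**Figure D1:**
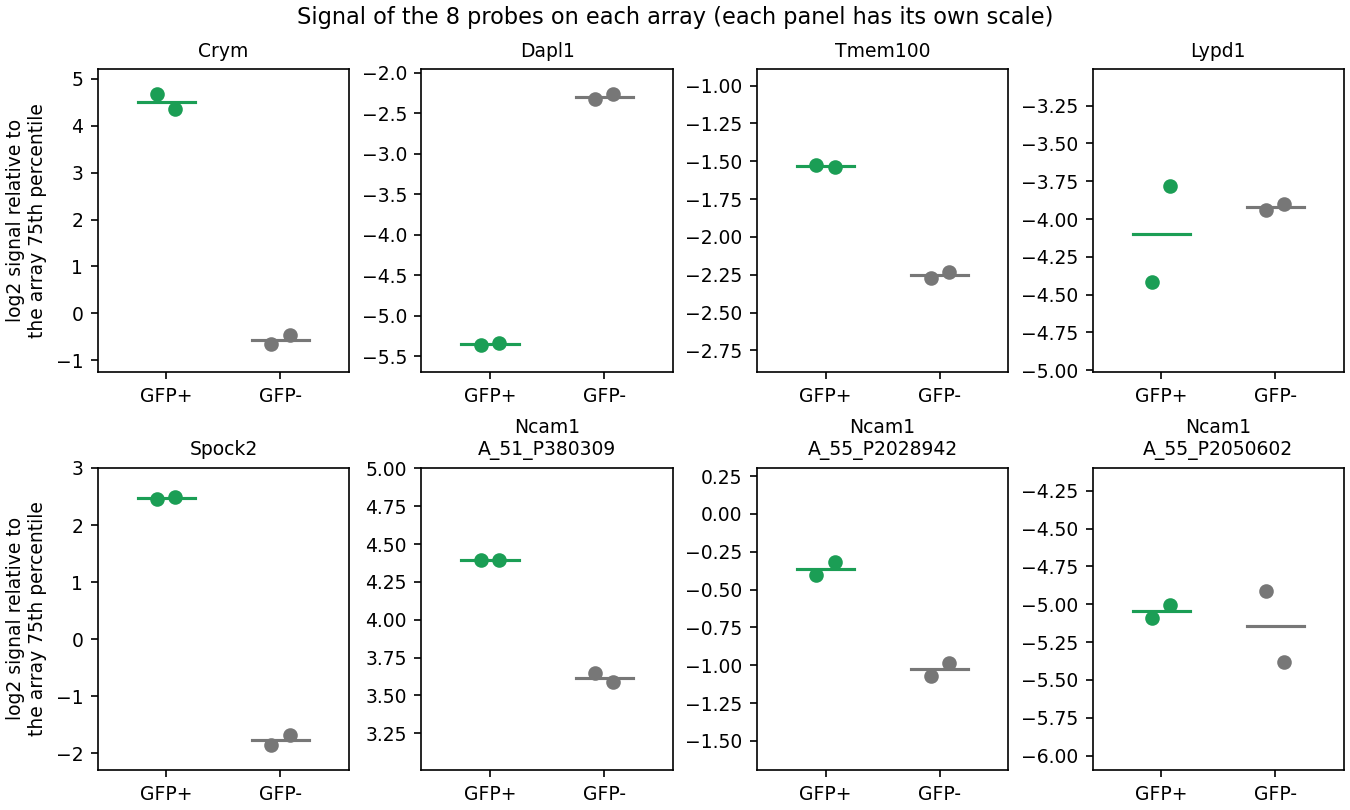
Signal on the log2 scale, with the 75th percentile of each array at 0 (vertical axis, a separate range in each panel), for the 8 probes in Six2GFP-positive cells (GFP+, green) and Six2GFP-negative cells (GFP-, grey). Points are single arrays and bars the mean of the 2 arrays. Crym, Spock2, Tmem100 and 2 Ncam1 probes sit higher in positive cells, Dapl1 sits lower, and the points of Lypd1 and of the remaining Ncam1 probe overlap between the groups. Of all probes tested, 49.1% had no overlap in the higher direction and 26.8% in the lower.

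Sequences are shown where they bear on which message was measured. The value of Dapl1, whose direction differs from that of the other called genes, rests on a single probe, and the Ncam1 probe shown is the one annotated to most transcripts of that gene. Both are printed from the array files, 5′ to 3′ in the sense of the message, with mm9 positions.
Dapl1 probe, chr2:59342824-59342883, plus strand: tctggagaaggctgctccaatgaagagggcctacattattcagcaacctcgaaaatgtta
Ncam1 shared probe, chr9:49351182-49351241, minus strand: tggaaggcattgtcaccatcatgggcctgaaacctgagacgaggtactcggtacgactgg
The Dapl1 probe starts at base 315 of the transcript NM_029723. The Ncam1 shared probe starts at base 2012 of NM_010875 and is annotated to 3 RefSeq transcripts of the gene. Both lie in coding sequence, which rests on knowledge of the proteins, since the files do not mark exons or coding ends.

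Crym, or mu-crystallin, is a cytosolic protein that binds thyroid hormone and also acts as a ketimine reductase. Its probe (chr7:127329970-127330029, mm9, minus strand) gave a processed signal of 38456 and 30612 on the positive arrays, against 1079 and 1229 on the negative arrays. On the log2 scale these were 4.67 and 4.37 in positive cells and -0.66 and -0.46 in negative cells. The positive arrays were both far brighter than the negative ones, and the closest pair of arrays still differed by 4.83. The difference was 5.08 ± 0.15, a 33.9-fold higher signal in Six2GFP-positive cells, at rank 22 of the 30012 probes ordered from the highest.

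Spock2, also called testican-2, is a secreted heparan sulphate proteoglycan of the SPARC family. At chr10:59596162-59596221 (mm9, plus strand), its probe gave processed signals of 8311 and 8341 in positive cells, against 474 and 531 in negative cells. The relative log2 values were 2.46 and 2.49 in positive cells and -1.85 and -1.67 in negative cells. The positive arrays nearly coincided, and the groups were separated by at least 4.13. Spock2 was thus 18.9-fold brighter in positive cells (4.24 ± 0.10), placing it at rank 51 among all probes ordered from the highest difference.

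Ncam1 encodes an adhesion molecule of the immunoglobulin family, known from neurons and from condensing kidney mesenchyme, whose transcripts differ by splicing and by their ends. The brightest probe (chr9:49310320-49310379, mm9, minus strand), annotated to 2 RefSeq transcripts, gave 4.39 and 4.39 in positive cells and 3.65 and 3.59 in negative cells. The shared probe gave -0.40 and -0.32 in positive cells, against -1.07 and -0.98 in negative cells. Both probes separated the groups without overlap, as did 49.1% of all probes tested in this direction. Their differences were 0.78 ± 0.08 (1.71-fold) and 0.67 ± 0.09 (1.59-fold). Relative to the shift of all probes these were differences of 0.60 and 0.49. The gene was well above background in negative cells too, with processed signals of 21479 and 20330 at the brightest probe.

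The remaining Ncam1 probe, at chr9:49323381-49323440 and annotated to transcript variant 2 alone, gave a different picture. Its processed signals were 44.4 and 46.2 in positive cells and 56.8 and 40.6 in negative cells. The spots were only 2.36 and 2.43 times as bright as their surroundings in positive cells and 2.86 and 2.53 times in negative cells. In relative log2 units the probe read -5.09 and -5.00 in positive cells and -4.91 and -5.38 in negative cells, so the 2 negative arrays lay on either side of the positive ones. Its difference of 0.10 ± 0.19 was 0.67 smaller than that of the brightest probe and 0.56 smaller than that of the shared probe. These contrasts between probes belong to the comparison on which the genes were chosen and were not tested.

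Tmem100 is a small membrane protein that arterial endothelium produces downstream of the receptor ALK1. Its probe (chr11:89897263-89897322, mm9, plus strand) gave processed signals of 524 and 511 in positive cells and 354 and 360 in negative cells. The relative log2 values were -1.53 and -1.54 against -2.27 and -2.23, with no overlap, as for 49.1% of all probes in this direction. Tmem100 was therefore 1.65-fold brighter in positive cells (0.72 ± 0.08), or 0.55 above the median shift. Endothelial markers ran the other way: 11 of 12 were lower in positive cells, none was higher, their summed level (in multiples of the 75th percentile) was 9.89 to 10.1 on positive arrays against 38.0 to 38.8 on negative arrays, and all 12 were still well above background on at least 1 positive array. Kdr and Egfl7 made up most of the positive sum, at 2.48 and 1.85 in log2, against 2.40 and 4.26 in negative cells. The Kdr probe used did not pass (0.08 ± 0.10, limma adjusted p = 0.553), and its other probe differed by -5.27. The part of endothelial cells in the negative signal of Tmem100 was not tested.

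Lypd1, also called Lynx2, is a lipid-anchored surface protein of the Ly6 family that binds nicotinic acetylcholine receptors. At chr1:127768639-127768698 (mm9, minus strand), the probe gave processed signals of 70.9 and 108 in positive cells and 111 and 113 in negative cells. Positive array 2 was close to the negative arrays and positive array 1 was dimmer, which left the groups overlapping (relative log2 -4.41 and -3.78 in positive cells, -3.94 and -3.90 in negative cells). The difference of -0.18 ± 0.24 was smaller than the 0.63 between the positive arrays. Without positive array 1 it was 0.14, and without positive array 2 it was -0.49.

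Dapl1, a small protein related to death-associated protein, restrains proliferation of mouse retinal pigment epithelium, and in zebrafish and frog eggs its counterpart sits on stored ribosomes. Here its probe gave processed signals of 36.7 and 36.6 on the positive arrays, with scanner software errors of 4.33 and 4.58, against 340 and 351 on the negative arrays. Relative to the 75th percentile these were -5.36 and -5.34 in positive cells and -2.33 and -2.27 in negative cells. The arrays of a group differed by no more than 0.061, and no positive array came within 3.01 of a negative one. The probe was thus 8.30-fold dimmer in Six2GFP-positive cells (difference -3.05 ± 0.08), at rank 1126 of the 30012 probes ordered from the lowest.

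The positive signal of Dapl1 was near the lower end of what the arrays resolve. Before background subtraction, its spots averaged 79.1 and 80.1 in positive cells over local backgrounds of 32 and 30, a ratio of 2.47 and 2.67, against 11.9 and 14.9 in negative cells. With normexp background correction and an offset of 50, which pulls dim signals together, the difference was -1.76. Markers of other lineages were lower as well: early nephron, stromal, endothelial and ureteric bud genes had median differences of -3.86, -4.55, -5.06 and -3.61, and summed levels of 11.0 to 11.2, 15.0 to 17.8, 9.89 to 10.1 and 6.68 to 7.57 on positive arrays against 61.7 to 72.6, 159 to 172, 38.0 to 38.8 and 34.3 to 42.8 on negative arrays. Single bright genes weighed on these sums. Kdr (endothelium) and Hoxb7 (ureteric bud, log2 2.15 in positive and 2.45 in negative cells) were bright in both groups and not called. Podocyte, proximal tubule, erythroid and leukocyte genes had median differences of -2.53, -2.23, -4.58 and -0.88. The source of the Dapl1 signal was not tested.

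**Figure D2:**
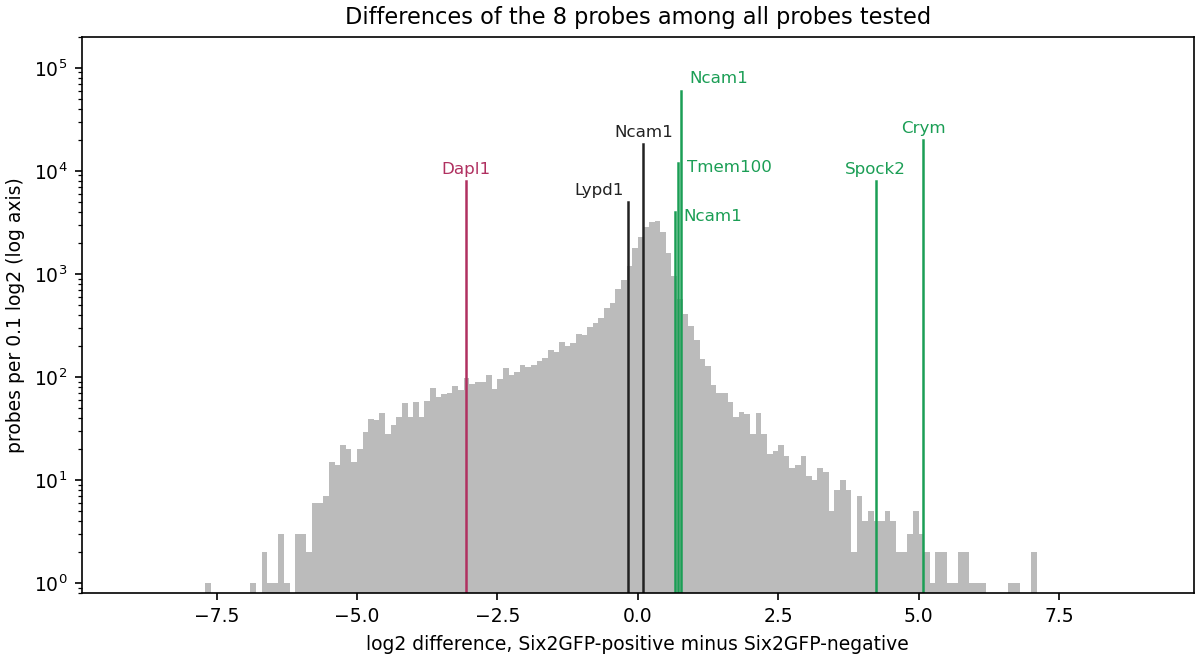
Number of probes (vertical axis, log scale) by log2 difference, Six2GFP-positive minus Six2GFP-negative (horizontal axis, bins of 0.1), for the 30012 probes tested. Vertical lines mark the 8 probes, in green where called higher, red where called lower and black where not called; their heights have no meaning. Crym at 5.08 and Spock2 at 4.24 lie in the sparse right tail, Dapl1 at -3.05 in the broader left tail, and the others near the bulk.

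RefSeq promoter sequences were at hand for Dapl1, Lypd1 and Spock2. They were searched on both strands for TCAGGTT, the core of the MEF3 element bound by Six2 and its relatives, for TATAAA, the TATA box, and for CTTTGAT, a TCF/LEF element; none of the 3 letter strings overlaps another in the window shown. Only the Dapl1 promoter held any of them. Its matches are in capitals in the window chr2:59484403-59484702 (GRCm38.p6, plus strand), which runs from 250 bases before the gene's start to 50 after it.
Dapl1 promoter: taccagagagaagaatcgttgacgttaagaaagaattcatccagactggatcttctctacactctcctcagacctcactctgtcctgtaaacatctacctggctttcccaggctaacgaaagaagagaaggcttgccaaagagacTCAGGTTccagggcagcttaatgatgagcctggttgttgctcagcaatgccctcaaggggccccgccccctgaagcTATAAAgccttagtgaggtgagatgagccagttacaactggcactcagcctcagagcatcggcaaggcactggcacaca
Counted from the start, the MEF3 match begins at -105 and the TATA match at -29. Among all 32851 promoters of this length, 4.07% held TCAGGTT and 13.6% TATAAA on either strand. The matches describe letters and say nothing about binding.

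Genes with the most similar profile over the 4 arrays were found by the Euclidean distance between profiles, each centred on its own mean, among 21792 probes of named genes well above background throughout. Nearest to Crym were Chrnd, the delta subunit of the muscle acetylcholine receptor (distance 0.24, difference 5.13), and Cited1 (0.28). Spock2 had Meox1, a homeobox gene of the cap mesenchyme, as its nearest (distance 0.041, difference 4.25), followed by the protocadherin gene Pcdh8 (0.13, difference 4.36). For Dapl1 they were Ttyh1, which encodes a membrane protein of the tweety family, and Cybrd1, a ferric reductase gene, at distances of 0.046 and 0.054 and differences of -3.04 and -3.06. The nearest to Tmem100 were Abtb1 and Slc25a46, to Lypd1 Zbtb4 and Fn3krp, and to Ncam1 Abca2 and Eid2, at distances between 0.016 and 0.087.

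Paralogues and known partners of the 6 genes were examined with the same fit. Of 75 such genes 70 were tested, and 9 were higher and 32 lower in Six2GFP-positive cells, with a median difference of -0.39, or -0.25 with genes not well above background in positive cells set to their bound, against 0.17 over all probes. Over all probes 22.7% were called higher and 18% lower. Of the genes called lower, Thrb, Chrna5, Spock3 and Chl1 entered the fit through the negative arrays alone; among the 65 genes well above background on all 4 arrays, 10 were higher and 28 lower. With no filter on dim probes the adjusted p of these 4 genes was 0.0141, 0.0539, 0.0653 and 0.00226 in that order. Without positive array 1, 27 passed in place of 41, of which 3 were higher and 24 lower; with arrays centred on their median, 18 were higher and 27 lower.

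Of 14 tested genes for the handling of thyroid hormone, the ligand of Crym, 3 were higher and 5 lower (median -0.10), where the share called higher was near that of all probes. The receptor gene Thrb was not well above background on either positive array (limma adjusted p = 0.00563 for the difference as measured). With its positive signals raised to the lowest signal well above background, Thrb was 3.44-fold lower in positive cells. Over the 12 settings that tested it, its difference ranged from -3.68 to -0.45. In the opposite direction, Dio3, the deiodinase that inactivates thyroid hormone, averaged -3.39 in positive cells and -5.38 in negative cells (2.00 ± 0.21, adjusted p = 0.00581); it was named after its value was seen.

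Among 12 tested genes of the SPARC family and of metalloproteases and their inhibitors, 1 was higher and 8 were lower (median -1.27, or -1.09 with bounds). Smoc2 and Sparcl1, secreted matrix proteins of that family, differed by -4.79 ± 0.14 and -4.40 ± 0.12 (limma adjusted p = 5.0e-04 and 4.8e-04). Spock3, a paralogue of Spock2 and 1 of the 8, was 1.64-fold lower by its bound, with neither positive array well above background. For its difference as measured the limma adjusted p was 0.0346, and 0.0653 with no filter on dim probes. Spock3 was called in 6 of the 12 settings that tested it, where its difference ranged from -1.42 to -0.0084. The 2 probes of Spock1, another paralogue, disagreed: the brighter averaged -5.90 in both groups (0.0011 ± 0.14, adjusted p = 0.995), and the other differed by 3.02.

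Of 12 Ly6 relatives of Lypd1 and nicotinic receptor subunits tested, none was higher and 8 were lower (median -0.87, or -0.61 with bounds). Over all probes 22.7% were called higher and 18% lower. Chrna5, 1 of the 8, was 1.10-fold lower by its bound. With no filter on dim probes its limma adjusted p was 0.0539. Lynx1, also counted as lower (-0.69 at its brightest probe), had another probe at 0.015. The closest relatives, Lypd6b and Lypd6, differed by -3.55 ± 0.17 and -2.17 ± 0.08 (limma adjusted p = 9.1e-04 and 6.2e-04), and another Lypd6 probe gave -0.22. Ly6h, a neuronal relative, averaged -1.39 in positive cells and 1.15 in negative cells (-2.54 ± 0.09, adjusted p = 5.5e-04).

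For Ncam1, 2 of 15 tested adhesion relatives and partners were higher and 6 lower (median -0.37). Chl1, a neural adhesion protein of the L1 family, was 10.4-fold lower at its brightest probe by its bound. For the difference as measured the limma adjusted p was 5.4e-04, and 0.00226 with no filter on dim probes. No positive array was well above background at that probe, and over the settings the difference ranged from -4.09 to -1.33. The prion protein gene Prnp differed by -3.56 ± 0.13 (limma adjusted p = 5.8e-04). The other Chl1 probe differed by -1.87. St8sia4 and St8sia2 encode the enzymes that add polysialic acid to NCAM: they differed by -2.35 ± 0.10 (adjusted p = 6.6e-04) and -0.12 ± 0.09 (adjusted p = 0.347). The FGF receptor gene Fgfr1 and the GDNF co-receptor gene Gfra1, whose proteins bind NCAM, were the 2 that were higher, by 0.84 ± 0.09 and 0.55 ± 0.12 (adjusted p = 0.00564 and 0.0336). Gfra1 was called in 8 of 13 settings. St8sia4, St8sia2, Fgfr1 and Gfra1 were named after their values were seen. Ncam2, the paralogue, was dimmer than the filter allowed and was not tested. Of 11 neural markers tested, 4 were higher and 3 lower, with a summed level of 4.51 on both positive arrays against 2.16 to 2.17 on the negative arrays. Without Elavl4 the sum was 1.36 to 1.48 on positive arrays and 1.40 on both negative arrays. The part of neural cells in the Ncam1 signal was not tested.

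Around Tmem100, the endothelial receptor genes Eng and Acvrl1 (ALK1) were lower in positive cells, with differences of -4.09 ± 0.14 and -2.12 ± 0.11 (limma adjusted p = 5.4e-04 and 0.00105). In all, 2 of 13 tested genes of ALK1 and BMP signalling were higher and 3 lower (median 0.10). Dap, the paralogue of Dapl1, averaged 0.59 in positive cells and 1.01 in negative cells (-0.41 ± 0.10, adjusted p = 0.0350), and Mitf, a pigment cell regulator linked to Dapl1 in the eye, differed by -1.08 ± 0.12 (adjusted p = 0.00604). The remaining 2 genes of that list were Eif5a2, higher by 0.34 ± 0.09 (adjusted p = 0.0441), and Eif5a, with a difference of 0.33 ± 0.13 (adjusted p = 0.120), both named after their values were seen. Dap and Eif5a2 were called in 6 of 13 settings each.

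**Figure D3:**
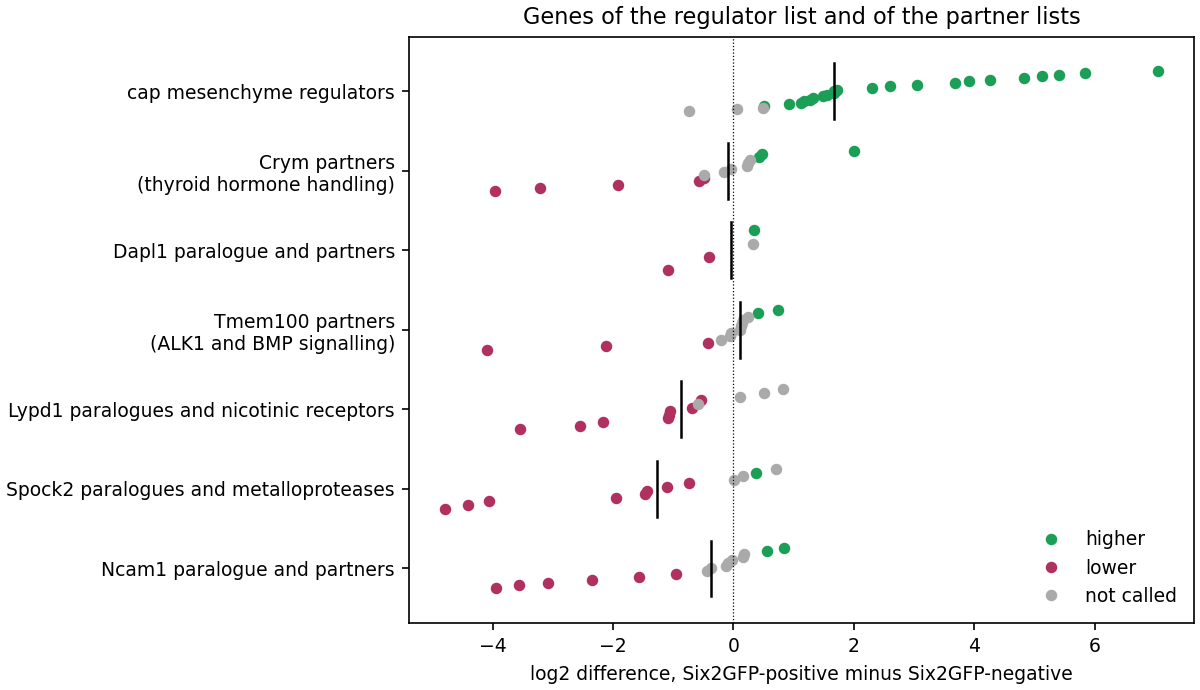
Log2 difference, Six2GFP-positive minus Six2GFP-negative (horizontal axis), for each tested gene of the cap mesenchyme regulator list and of the lists of paralogues and partners. Points are genes, in green where higher, red where lower and grey where not called at an adjusted p of 0.05 in limma; black bars are list medians. The regulators lie to the right with a median of 1.68, and the SPARC family and metalloprotease list lies furthest left with a median of -1.27.

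Genes next to the 6 on their chromosomes were looked up in the RefSeq gene table after the values were seen. Of 12 flanking protein-coding genes 11 were tested. None was higher, 4 were lower and 7 did not pass, where 22.7% of all probes were called higher and 18% lower. Pkp4 and Tanc1, on either side of Dapl1, differed by 0.25 ± 0.15 and 0.70 ± 0.23 (limma adjusted p = 0.241 and 0.0777). Beside Spock2, Chst3, a chondroitin sulphotransferase gene, was lower (-1.67 ± 0.15, adjusted p = 0.00377), as were Ttc12 and Plet1 on either side of Ncam1 (-1.76 ± 0.10 and -1.46 ± 0.09, adjusted p = 0.00115 and 0.00134). Anks4b, beside Crym, was lower as well (-4.59 ± 0.19, limma adjusted p = 6.8e-04, or 0.00258 with no filter on dim probes). However, it entered the fit through the negative arrays. It was well above background on 1 of 2 positive arrays, so the size of its difference is uncertain.

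The directions of Crym, Spock2, Tmem100, Dapl1 and the 2 brighter Ncam1 probes were the same under all 13 settings. The filters, the variance trend and the replicate block cannot change a difference, and leaving out 1 array cannot reverse groups that do not overlap. The series table holds the same intensities, so only quantile normalization, the array median and normexp could have changed these directions. Crym ranged from 4.93 to 5.32, Spock2 from 4.07 to 4.47, Tmem100 from 0.62 to 0.96 and Dapl1 from -3.08 to -1.76.

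**Figure D4:**
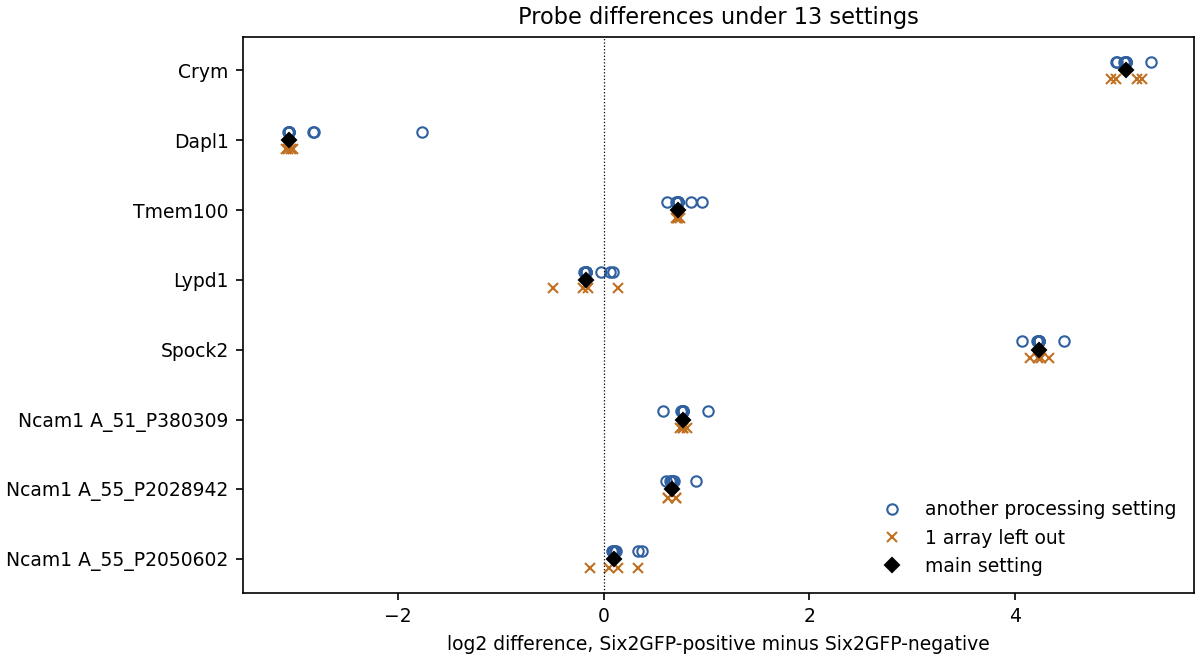
Log2 difference, Six2GFP-positive minus Six2GFP-negative (horizontal axis), of the 8 probes under 13 settings. Black diamonds are the main setting, open blue circles another normalization, filter or variance model, and orange crosses fits without 1 array. Lypd1 and the Ncam1 probe A_55_P2050602 lie on both sides of 0, and Dapl1 at -1.76 with normexp is the point farthest from its main value.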

How the data were processed

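Each sample was run on 1 one-colour Agilent array (design 026655). Feature Extraction 10.7.3.1 with protocol GE1_107_Sep09 read the scans and mm9 is the build of the probe positions, per the file headers. Linear intensity per spot is what the authors deposited from the scanner: the processed signal, detrended within the array, and mean and background signals, with no scaling between arrays. The deposited series table holds the same intensity values: 99.76% to 99.84% of probes per array lay within 0.01 log2 of the scanner value.

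Of 39429 non-control probes on each array, 39395 had a spot without an outlier flag on all arrays. Between 72.5% and 79.1% of spots were well above background; 2 arrays per group limit the precision. The log2 processed signal minus the array's 75th percentile was averaged over spots, not over probes. Probes well above background on both arrays of a group were fitted with limma 3.58.1 in R 4.3.3 (lmFit, eBayes, two-sided, Benjamini-Hochberg over 30012 probes); the fit was tested on simulated data. In lists a gene stands by its brightest probe. Where no array of a group was well above background, a bound was taken, with dimmer signals raised to the lowest signal well above background on each array. A bound depends on the background correction and is not a strict limit.

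The 6 genes and all lists were chosen with earlier results of these data known. Named are all probes of the 6 genes, Six2, Cited1 and the 3 largest calls of the regulators, the 2 largest calls of each partner list with paralogues, and the 2 nearest profiles. For 1 gene that this rule names, the result is not reported here. Nothing in the labels says that the 2 arrays of a group came from separate animals, so p-values measure only the spread between these samples, which may be technical. Alternatives were quantile normalization, the array median, normexp, the series table, 2 other filters, a variance trend, a block for the replicate number and fits without 1 array.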

Additional observations from a re-analysis of the deposited data

How the results depend on the processing

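With the main setting 12210 probes passed, 55.8% of them higher in Six2GFP-positive cells; with the array median in place of the 75th percentile, where the median difference was 0.41 and not 0.17, 74.5% of 18216 were higher, and with no filter on dim probes 44.6% of 8507. Leaving out 1 array left 5761 to 6482 probes past the threshold, of which 30.9% to 42.3% were higher, 27 to 31 of the partner genes in place of 41, 20 to 21 of the regulators in place of 22, and 5 to 6 of the 8 marker probes in place of 6. The fall in all probes exceeded 1.5 times for each array: 6375 and 5942 without positive array 1 and 2, and 6482 and 5761 without negative array 1 and 2; each of these fits has fewer samples, and the lone array is assumed to vary like the other group. The shared Ncam1 probe was called under 11 of 13 settings, and lost its call without positive array 2 and without negative array 1. Lypd1 changed sign with quantile normalization (0.088), with the array median (0.062) and without positive array 1 (0.14), and the variant 2 probe of Ncam1 without negative array 2 (-0.13); the cause was not tested. Over the fits without 1 array, Lypd1 ranged from -0.49 to 0.14 and that Ncam1 probe from -0.13 to 0.33. The mean of the 3 Ncam1 probes was 0.51. The deviations of the same-numbered arrays correlated at 0.22 between groups across 30012 probes; with 2 pairs the numbers are not shown to pair the samples, and the fit with the replicate block gave 11671 probes, 39 partner genes, 24 regulators (23 higher and 1 lower) and the same count of 6 marker probes.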
